A study of Rattus norvegicus with 6 samples.

Results

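The 8 genes described here are the receptors that brain cells use to read corticosterone, an enzyme that makes the hormone inside the cell, a receptor of the stress axis, and 4 genes known to be switched on by glucocorticoids. They were chosen by symbol among the non-control probes of an Agilent rat whole-genome array, after suffixes for predicted or mapped genes had been removed. All 8 were found, with 15 probes on 33 spots of each array, out of 41012 probes on 43379 spots. Sgk1 is listed there under its older symbol Sgk. Total RNA came from the hippocampus of male Wistar rats that were 11 weeks old at the start. The sedentary control (CONT) rats rested on the treadmill. The mild exercise (ME) rats ran at 15 m/min, below the lactate threshold, and the intense exercise (IE) rats ran at 40 m/min, above it. Both ran 60 min per day, 5 times per week. Training took 6 weeks in all, a span that included the habituation of 1 week (ME) or 4 weeks (IE), for which the study's methods state slight electric shocks. Some IE rats were also given shocks after habituation. RNA of 5 rats was pooled in each group by the methods, while the labels number the 2 arrays of a comparison Pool 1 and Pool 2. Each group was treated here as 1 biological sample. For each of the 3 comparisons, ME and IE against CONT and IE against ME, 2 arrays were hybridised with the dyes exchanged. The labels put collection 24 or 36 h after the last session, while the methods give another interval and place it in the morning.

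Corticosterone, the main glucocorticoid of rats, binds a high-affinity mineralocorticoid receptor (MR, Nr3c2) and a lower-affinity glucocorticoid receptor (GR, Nr3c1). Both are held by chaperones in the cytoplasm, enter the nucleus once bound and change transcription at glucocorticoid response elements. The hippocampus is rich in both and takes part in the feedback that shuts off the hormone's release. Crhr1 is the receptor for corticotropin-releasing hormone, and Hsd11b1 regenerates active corticosterone from its inactive 11-keto form. Fkbp5 is a co-chaperone that lowers the hormone affinity of GR, Sgk1 is a kinase, Per1 is a component of the circadian clock, and Tsc22d3 (GILZ) is a leucine zipper protein with anti-inflammatory action. Plasma corticosterone was part of the study, which makes the mRNA levels of its receptors and targets a direct question for these arrays.

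Values below are log2 ratios of the pool named first over the pool named second, turned so that array 1 and array 2 of a dye swap point the same way. Array 1 carried the first-named pool in Cy5 and array 2 carried it in Cy3. The SD is that between these 2 arrays. A dye difference shared by both arrays has opposite signs once the ratios are turned. Such a difference adds to the SD but cancels in the mean. With 1 pool per group, as the methods describe, the SD measures the technique and not the rats. It would also hold differences between rats if the arrays carried separate pools. The sources do not settle this, and no test between groups of rats was made. The p-value of the scanner software compares 2 pools on 1 array. A probe was called when one array had a Cy5 over Cy3 of at least 1.5 and its dye-swap partner had 0.75 or less, provided that p was below 0.01 each time. A reading is 1 channel of 1 array, and each probe had 4 readings in a comparison. The arrays with CONT and those of IE vs ME are named below as 2 slides. This grouping was made here by comparison and was not read from the labels. Probes with all 4 readings well above background are called detected probes below.

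Probe sequences are shown for the receptor genes and for Tsc22d3, which held the largest single-array ratio of the target genes. The stretches run 5′ to 3′ and cover bases 16 to 45 of each probe of 60 bases. Positions are those of the whole probe on build rn3 as the array annotation gives them, and all are on the minus strand except those of Crhr1.
Nr3c1 A_43_P15242, chr18:32406831-32406892: cttggtattaccaaaccacacattgtactg
Nr3c1 A_44_P477376, chr18:32407198-32407257: tattttctgataaatggctgtatgaaaata
Nr3c2 A_43_P15261, chr19:32532891-32532949: acattagtctttttgtattagtgaagttac
Nr3c2 A_44_P158441, chr19:32592069-32592128: agaacatcgagcctgagaccgtgtatgcag
Crhr1 A_42_P688027, chr10:93367959-93368492: tgaacagtgaggtccgctccgctatccgga
Crhr1 A_44_P456197, chr10:93369413-93369472: gtaaagggagaaagggcctctgtactcgag
Tsc22d3 A_42_P822638, chrX:128409997-128410056: agacaagaagagtaaatagttttgatccct
Tsc22d3 A_44_P346807, chrX:128411310-128411369: aggagcagattcgtgagctggttgagaaga
The 2 Nr3c1 probes lie 306 bases apart and the 2 Nr3c2 probes 59120 bases apart. Crhr1 A_42_P688027 spans 534 bases of genome with its 60 bases, as does Per1 A_44_P114034 over 585 bases (chr10:55881463-55882047), so that their bases are not contiguous there. Exon and UTR positions on rn3 were not analysed here.

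None of the 15 probes was up-regulated or down-regulated in any comparison. The share called among all probes was itself small, at 0.122% of 40922 for ME vs CONT, 0.0293% of 40957 for IE vs CONT and 0.0732% of 41009 for IE vs ME. With the p threshold dropped the members called stayed at 0 of 15 in each comparison, against 0.987%, 0.667% and 1.06% of all probes. The probes nevertheless gave signal, since all 4 readings were well above background for 15, 15 and 14 of the 15 probes in these comparisons. The single exception was Crhr1 A_42_P688027 in IE vs ME.

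The mean ratios were also small. They ran from -0.061 to 0.17 in ME vs CONT, from -0.32 to 0.029 in IE vs CONT and from -0.38 to 0.054 in IE vs ME, which are 0.959 to 1.12-fold, 0.801 to 1.02-fold and 0.766 to 1.04-fold. Their medians were -0.0057, -0.011 and -0.022, beside 0, 0 and -0.0016 over all probes. The median size of the ratio, sign aside, was 0.035, 0.026 and 0.037 for the members, and 0.041, 0.045 and 0.048 for all detected probes. Means under 0.1 either way were seen for 13, 14 and 14 of the 15 members, or 86.7%, 93.3% and 93.3%, beside 80.3%, 80.2% and 76.4% of those detected probes. On the slide that held the CONT arrays the signal range of ME overlapped that of CONT at 15 of 15 probes, beside 93.0% of all probes, and so did that of IE, beside 93.2%. The ranges of ME and IE, read on different arrays there, lay apart at 3 members (20%), Nr3c2 A_43_P15261, Nr3c2 A_44_P158441 and Crhr1 A_42_P688027, and at 23.8% of all probes. On the slide of IE vs ME they lay apart at 1 member (6.67%), Nr3c1 A_44_P477376, and at 14.5% of all probes. In whole hippocampus a change in the number of cells that hold a transcript and a change in its amount per cell cannot be told apart.

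**Figure D1:**
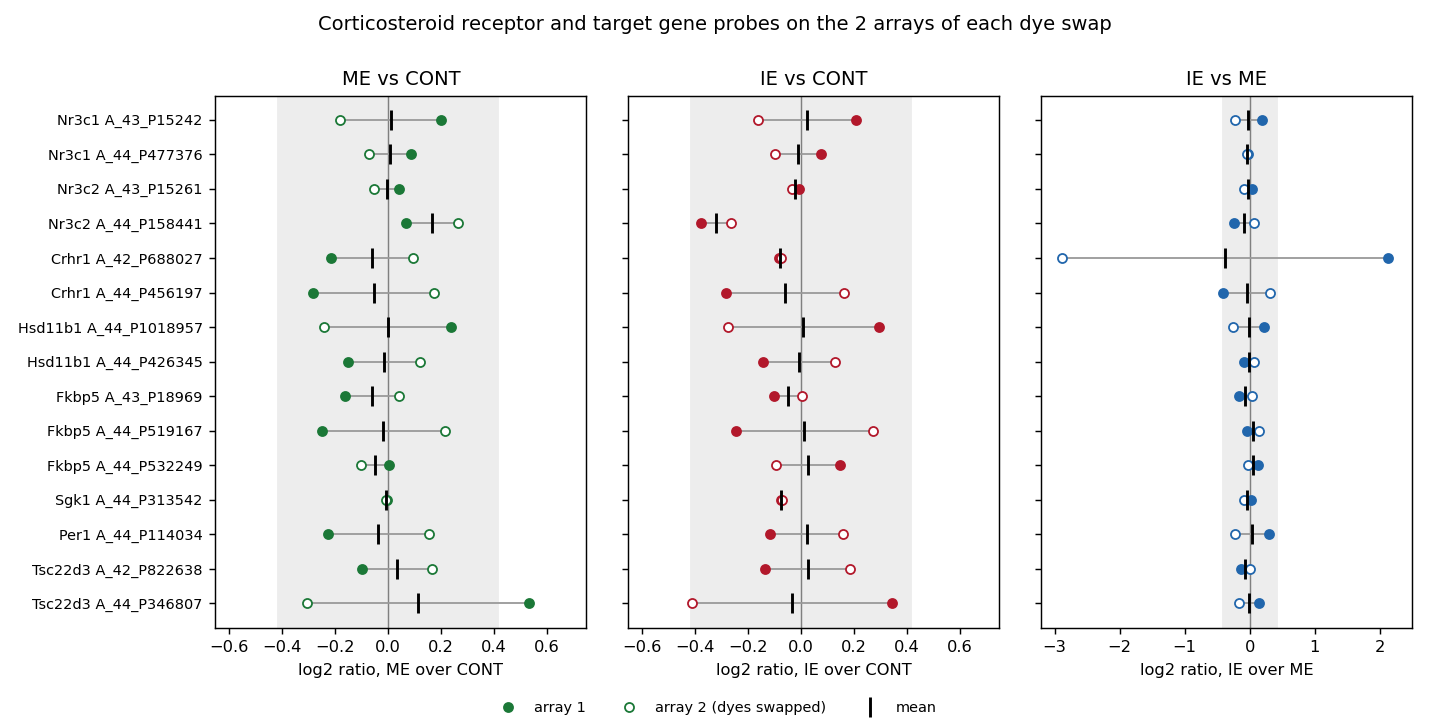
Log2 ratios of the 15 probes in the 3 comparisons, with array 1 as filled circles, array 2 with the dyes exchanged as open circles and their mean as a black bar. The grey band (ratios of 0.75 to 1.33) is the range inside which an array meets neither threshold of the call rule. The axis of IE vs ME is wider because of Crhr1 A_42_P688027, whose arrays lay at 2.12 and -2.89, and most pairs of circles lie on opposite sides of 0.

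For the receptors, Nr3c1 differed little between the pools. Its probe A_43_P15242 is printed 10 times on each array, which gives the spread among its spots within an array. Processed signals on the slide with the CONT arrays were 2840 to 3205 in the 4 CONT readings, 2830 and 3332 in ME, and 2748 and 3280 in IE, so that the 3 pools overlapped. On the slide of IE vs ME they were 993 and 1138 in ME, and 976 and 1126 in IE. The log2 ratios of arrays 1 and 2 were 0.20 and -0.18 in ME vs CONT, 0.21 and -0.16 in IE vs CONT, and 0.18 and -0.22 in IE vs ME. Each pair nearly cancelled, leaving means of 0.011 ± 0.27, 0.023 ± 0.26 and -0.020 ± 0.28 (SD, 2 arrays).

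The spots of this probe showed a gap between arrays far larger than the spread among spots. Within an array the SD of 9 or 10 retained spots was 0.024 to 0.031. Every retained spot lay above 0 on array 1 and below 0 on array 2 of all 3 dye swaps, which is the same as Cy5 being the brighter dye on all 6 arrays. The other Nr3c1 probe, A_44_P477376, behaved alike with a smaller dye difference, and its means were 0.0087 ± 0.11, -0.011 ± 0.12 and -0.037 ± 0.0037. In IE vs ME its arrays read -0.034 and -0.039, a fold of 0.975, and 59.3% of detected probes had a larger ratio in size.

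**Figure D2:**
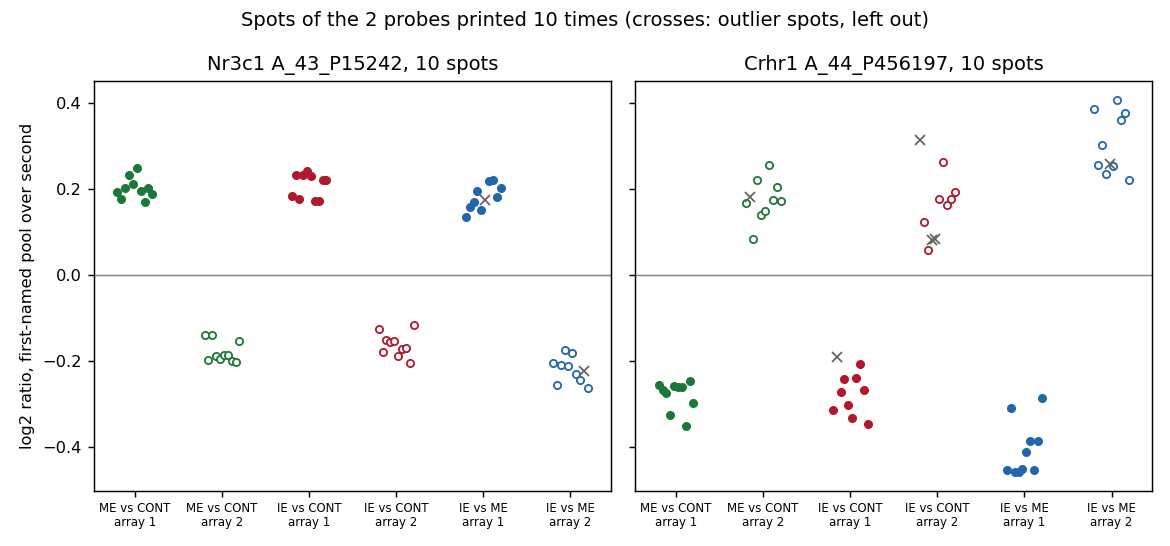
Log2 ratios of the single spots of Nr3c1 A_43_P15242 (left) and Crhr1 A_44_P456197 (right) on the 6 arrays, with array 1 of each dye swap filled, array 2 open and outlier spots as crosses. In both probes the retained spots of array 1 lie on one side of 0 and those of array 2 on the other, in all 3 dye swaps.

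Nr3c2 was measured by 2 probes. The first, A_43_P15261, had signals of 2630 to 6006 over its 12 readings. Its arrays read 0.043 and -0.050 in ME vs CONT, -0.0067 and -0.034 in IE vs CONT, and 0.038 and -0.083 in IE vs ME. The means were -0.0036 ± 0.066, -0.021 ± 0.019 and -0.022 ± 0.086, so that MR mRNA at this probe was within 0.03 of equal on the log2 scale in each comparison.

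The other Nr3c2 probe, A_44_P158441, gave a different picture. Its signals were 32.5 to 46.2 in all 12 readings, each well above background. In ME vs CONT its arrays read 0.068 and 0.27 (mean 0.17 ± 0.14), and in IE vs CONT -0.38 and -0.26 (mean -0.32 ± 0.082). Both arrays thus lay above 0 with ME and below 0 with IE. None of the 4 arrays passed the scanner's threshold, since p was 0.783 and 0.313 with ME and 0.142 and 0.346 with IE. Among the detected probes of IE vs CONT, of all signal levels, 0.901% had a larger ratio in size. A rank among probes of similarly low signal was not made. The direct comparison of IE with ME on the other slide gave -0.24 and 0.063 (mean -0.086 ± 0.21), where the 2 comparisons with CONT would give a difference of -0.49. Both means against CONT were smaller in size under 3 other settings. After normexp background correction with loess the means were 0.026 (ME vs CONT) and -0.095 (IE vs CONT), a difference of -0.12. With loess alone they were 0.062 and -0.11 (difference -0.17), and in a joint fit of the 6 arrays 0.033 and -0.19 (difference -0.22).

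Crhr1 also had 2 probes. The first, A_44_P456197, is printed 10 times and was designed on a sequence that the annotation describes as the 3′ UTR of the gene. Its arrays read -0.28 and 0.17 in ME vs CONT, -0.28 and 0.16 in IE vs CONT, and -0.41 and 0.31 in IE vs ME. Cy3 was the brighter dye on all 6 arrays, and the means were -0.053 ± 0.32, -0.058 ± 0.31 and -0.047 ± 0.51. Spots within an array varied with an SD of 0.034 to 0.072, after 0 to 3 outlier spots had been left out.

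The other Crhr1 probe, A_42_P688027, held the only member ratios beyond 1.5-fold on 2 arrays. In IE vs ME its arrays read 2.12 and -2.89, with scanner p of 6.79e-06 and 1.28e-06. The signs were opposite, and the means of the 2 comparisons with CONT were only -0.059 ± 0.22 and -0.077 ± 0.0049. The mean of -0.38 ± 3.5 was given no direction here, since each array held a Cy3 reading that was not well above background. On array 1 IE read 37.7 in Cy5 and ME 8.69 in Cy3, while on array 2 ME read 39.7 in Cy5 and IE 5.37 in Cy3. Each pool was thus well above background in Cy5 and not in Cy3, in 1 reading of 2. Such pairs were frequent on that slide, where 4.18% of all probes had p below 0.01 on both arrays with opposite signs, against 0.887% in ME vs CONT and 0.913% in IE vs CONT. Of those 1713 probes in IE vs ME, 1396 lacked at least 1 reading well above background.

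Hsd11b1, the enzyme, was close to equal in the 3 pools. Its 2 probes are 195 bases apart and gave opposite dye behaviour. A_44_P1018957 read 0.24 and -0.24 in ME vs CONT, 0.30 and -0.28 in IE vs CONT, and 0.22 and -0.25 in IE vs ME, and A_44_P426345 read -0.15 and 0.12, -0.14 and 0.13, and -0.091 and 0.071. The means over the 2 arrays agreed within 0.02. They were -6.3e-05, 0.0099 and -0.014 for the first probe, and -0.014, -0.0052 and -0.010 for the second, with an SD of 0.11 to 0.40. Signals were 4818 to 6002 and 8429 to 9861 on the slide with CONT, and the 3 pools overlapped in both.

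**Figure D3:**
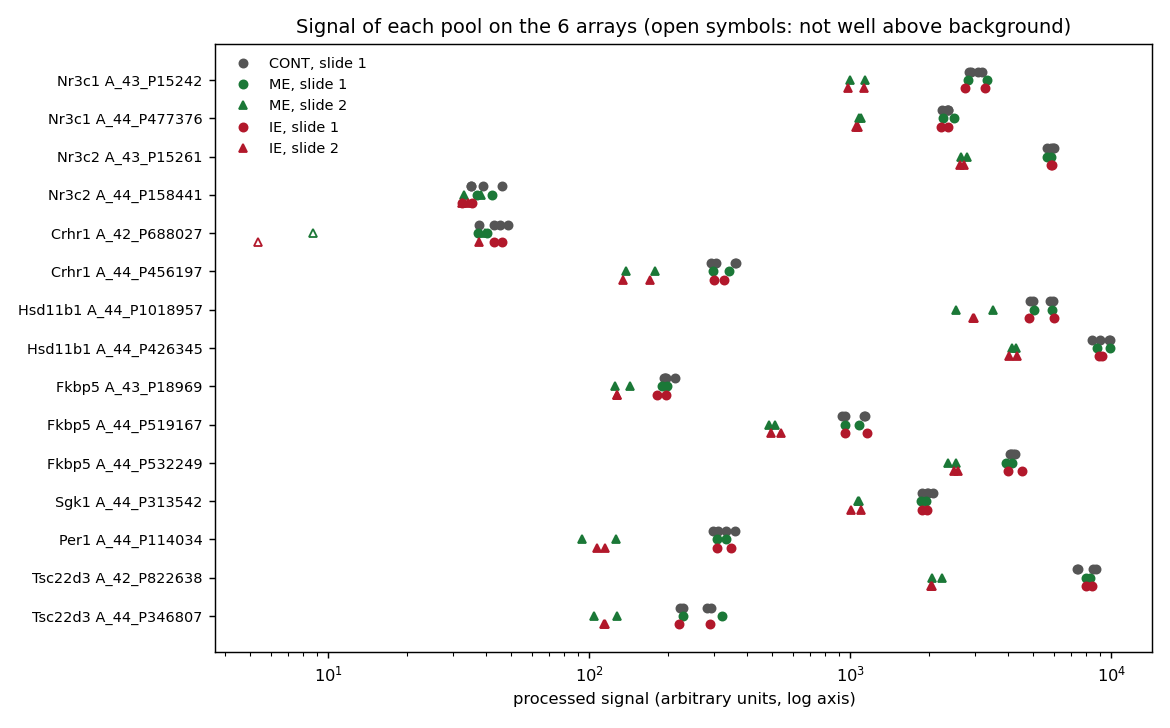
Processed signal (arbitrary units, log axis) of CONT (grey), ME (green) and IE (red) at each of the 15 probes, with circles for the slide that held the CONT arrays and triangles for the slide of IE vs ME. The ranges of both exercise pools overlap that of CONT at 15 of 15 probes, beside 93.0% (ME) and 93.2% (IE) of all probes, and the 2 open symbols are the Cy3 readings of Crhr1 A_42_P688027, 8.69 in ME and 5.37 in IE. Levels are not comparable between probes.

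Among the target genes, Fkbp5 is widely used as a readout of glucocorticoid action. Its 3 probes spread over 9702 bases of chromosome 20, and their means were all below 0 in ME vs CONT but of mixed sign in the other 2 comparisons. In ME vs CONT they were -0.061 ± 0.14 (A_43_P18969), -0.017 ± 0.33 (A_44_P519167) and -0.049 ± 0.074 (A_44_P532249). In IE vs CONT they were -0.048 ± 0.072, 0.013 ± 0.37 and 0.029 ± 0.17, and in IE vs ME -0.067 ± 0.14, 0.054 ± 0.13 and 0.050 ± 0.11. All 9 means were smaller than their SD. Probe A_44_P532249 had signals of 4082 to 4263 in CONT, 3929 and 4147 in ME, and 4000 and 4529 in IE.

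Sgk1 was read by 1 probe, A_44_P313542 (chr1:23504663-23504722 on rn3), with little difference between the dyes. Its signals on the slide with CONT were 1878 to 2063 in CONT, 1869 and 1953 in ME, and 1876 and 1963 in IE. The arrays read -0.0043 and -0.0071 in ME vs CONT and -0.076 and -0.072 in IE vs CONT. Both IE arrays were therefore slightly lower than CONT, with a mean of -0.074 ± 0.0031 or 0.950-fold and p of 0.710 and 0.726. A larger ratio in size was found for 30.7% of detected probes. In IE vs ME the arrays read 0.016 and -0.088, on either side of 0 (mean -0.036 ± 0.073).

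Per1, at A_44_P114034, read -0.23 and 0.15 in ME vs CONT, -0.11 and 0.16 in IE vs CONT, and 0.30 and -0.23 in IE vs ME. The means were -0.036 ± 0.27, 0.023 ± 0.19 and 0.033 ± 0.38. Its dye preference changed with the slide. Cy3 was brighter on the 4 arrays with CONT, at signals of 299 to 361 in CONT, and Cy5 was brighter on both arrays of IE vs ME, at signals of 93.3 to 126.

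Tsc22d3 had the largest single-array ratio of the target genes. Probe A_44_P346807 read 0.53 and -0.31 in ME vs CONT, with scanner p-values of 0.0114 and 0.141. Its mean there was 0.11 ± 0.59, and this SD includes the dye difference. A larger ratio in size was found for 16.4% of detected probes, and a joint fit of the 6 arrays gave 0.071. In IE vs CONT the probe read 0.35 and -0.41, and in IE vs ME 0.14 and -0.17. Cy5 was brighter on all 6 arrays. The other probe, A_42_P822638, lies 1254 bases away with Cy3 brighter on all 6, and its means were 0.035 ± 0.19, 0.026 ± 0.23 and -0.066 ± 0.097. Its signals were 7360 to 8739 in CONT, 7975 and 8270 in ME, and 7968 and 8452 in IE.

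Many of the member probes favoured one dye. Of the 14 member probes with all 12 readings well above background, 4 were brighter in Cy5 on 6 of 6 arrays and 5 were brighter in Cy3 on 6 of 6. Among the 24716 probes of the whole array that met the same requirement, 16.9% were always brighter in Cy5 and 17.7% always in Cy3. Both arrays of a dye swap had the same sign for 2 members in ME vs CONT, 4 in IE vs CONT and 1 in IE vs ME (13.3%, 26.7% and 6.67%), beside 28.6%, 28.2% and 26.7% of detected probes. The 2 in ME vs CONT were Nr3c2 A_44_P158441 (above 0) and Sgk1 (below 0). The 4 in IE vs CONT, all below 0, were both Nr3c2 probes, Crhr1 A_42_P688027 and Sgk1. The median SD between arrays was 0.19, 0.19 and 0.14 for the members and 0.13, 0.14 and 0.15 for the detected probes. The mean was no larger than its SD for 13, 11 and 14 of the 15 probes in the 3 comparisons (86.7%, 73.3% and 93.3%). Among detected probes this share was 78.8%, 79.5% and 80.6%. Since the SD includes the dye difference, these shares do not show how well 2 pools can be told apart.

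**Figure D4:**
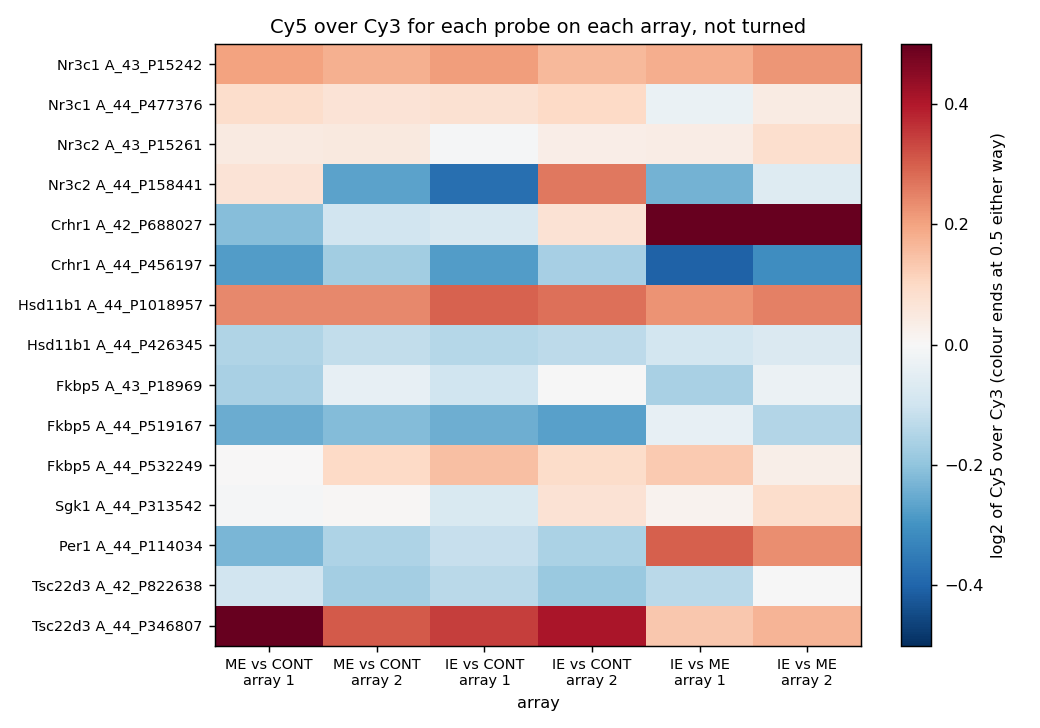
Log2 of Cy5 over Cy3 for the 15 probes (rows) on the 6 arrays (columns), before the ratios were turned, with red where Cy5 was brighter and blue where Cy3 was brighter. Colours end at 0.5 either way. Rows of 1 colour, such as Nr3c1 A_43_P15242 (red) and Crhr1 A_44_P456197 (blue), are probes in which the same dye was brighter on 6 of 6 arrays.

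The wider pathway was examined in 7 lists of 111 genes, of which 104 were found with 153 probes. None of the 153 probes was called in any of the 3 comparisons, beside 0.122%, 0.0293% and 0.0732% of all probes. Without the p threshold 0, 0 and 2 probes were called, beside 0.987%, 0.667% and 1.06% of all probes. The 2 in IE vs ME were Cyp11b2 (aldosterone synthase, mean -0.92) and Serpina6 (corticosteroid-binding globulin, mean -0.71), with 1 and 0 of 4 readings well above background. The medians over the 153 probes were 0, -0.0018 and 0.0037.

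The chaperone complex that keeps GR and MR ready for hormone was close to equal in all pools. Its 24 probes of 11 genes (of 12 listed) were all detected, with medians of -0.011, -0.039 and -0.024. The lowest with IE was Hsp90aa1 A_44_P261874 at -0.14 ± 0.17 and the highest Hspa1a at 0.053 ± 0.28. The nuclear receptor coregulators (32 probes of 16 genes, of 17 listed) had medians of -0.014, -0.015 and 0.018. Their extremes were Crebbp, a histone acetyltransferase, at 0.25 ± 0.46, and Nrip1, a corepressor, at -0.23 ± 0.58, both in ME vs CONT and both with arrays of opposite sign.

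Another group of genes known to be induced by glucocorticoids showed small ratios that leaned upward against CONT. It held 31 probes of 23 genes (of 25 listed), with medians of 0.061 in ME vs CONT, 0.044 in IE vs CONT and -0.012 in IE vs ME. Both arrays lay above 0 for 12 probes with ME and 10 with IE, and below 0 for 1 and 2. Among all probes tested, 12.8% and 13.5% had both arrays above 0, and 14.2% and 13.0% below 0. With detected probes alone the counts were 11 of 26 and 8 of 26, beside 13.6% and 14.6%. None was called, and the 2 comparisons share the CONT pool and are not independent. In IE vs ME both arrays lay above 0 for 2 probes and below 0 for 4, beside 4497 and 4906 of all 41009 probes.

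The highest of this group with ME was Dusp1, a phosphatase that turns off MAP kinases, whose arrays read 0.24 and 0.63 (mean 0.43 ± 0.28, with scanner p-values of 0.256 and 0.00355). With IE it read -0.11 and 0.37, and in IE vs ME 0.052 and -0.94. Dusp1 is also an immediate early gene. The highest detected probe with IE was that of Arrdc2, an arrestin-domain protein, at 0.024 and 0.59 (mean 0.31 ± 0.40). The lowest detected probes were Zbtb16 A_44_P189428, a transcription factor, at -0.057 ± 0.00025 with ME and Mertk, a phagocytosis receptor, at -0.061 ± 0.059 with IE. Scanner p-values of that Zbtb16 probe with ME were 0.842 and 0.846. The other Zbtb16 probe, A_44_P366142, was also detected and lay above 0 on both arrays with ME (mean 0.056 ± 0.047). Immediate early genes themselves (12 probes of 10 genes, a list of activity markers) had medians of 0.094, 0.021 and -0.13, and none was called.

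The ligand side was less well measured. The list of corticotropin-releasing hormone, ACTH and related peptides and receptors held 17 probes of 14 genes (of 15 listed), of which 14, 14 and 9 were detected, with medians of 0.014, 0.084 and -0.0070. The highest detected probe with ME was Avpr1b, a vasopressin receptor, at 0.24 ± 0.033, and with IE Mc4r, a melanocortin receptor, at 0.24 ± 0.67. Corticosteroid metabolism and transport (19 probes of 16 genes, of 17 listed) had 11, 11 and 10 detected probes and medians of 0, -0.0018 and 0.0030. Hsd11b2, which inactivates corticosterone, was its lowest detected probe with IE at -0.12 ± 0.11. The other steroid receptors (7 probes of 6 genes, of 7 listed) had only 5, 4 and 1 detected probes, with medians of -0.027, -0.14 and -0.0089. The lowest with IE was Pgr A_44_P359587, the progesterone receptor, at -0.26 ± 0.15, and Pgr A_44_P205815 stood at 0.080 ± 0.13.

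The clock genes other than Per1 (23 probes of 18 genes, of 18 listed) had medians of -0.010, -0.033 and 0.031. Among detected probes with IE, Nr1d2, a repressor of the clock loop, was highest at 0.21 ± 0.12. Bhlhe41 was the lowest of them at -0.17 ± 0.32, while the lowest mean over all 23 probes was -0.59. In IE vs ME the highest was Hlf, a PAR bZIP factor, whose arrays read 0.83 and 0.0056.

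**Figure D5:**
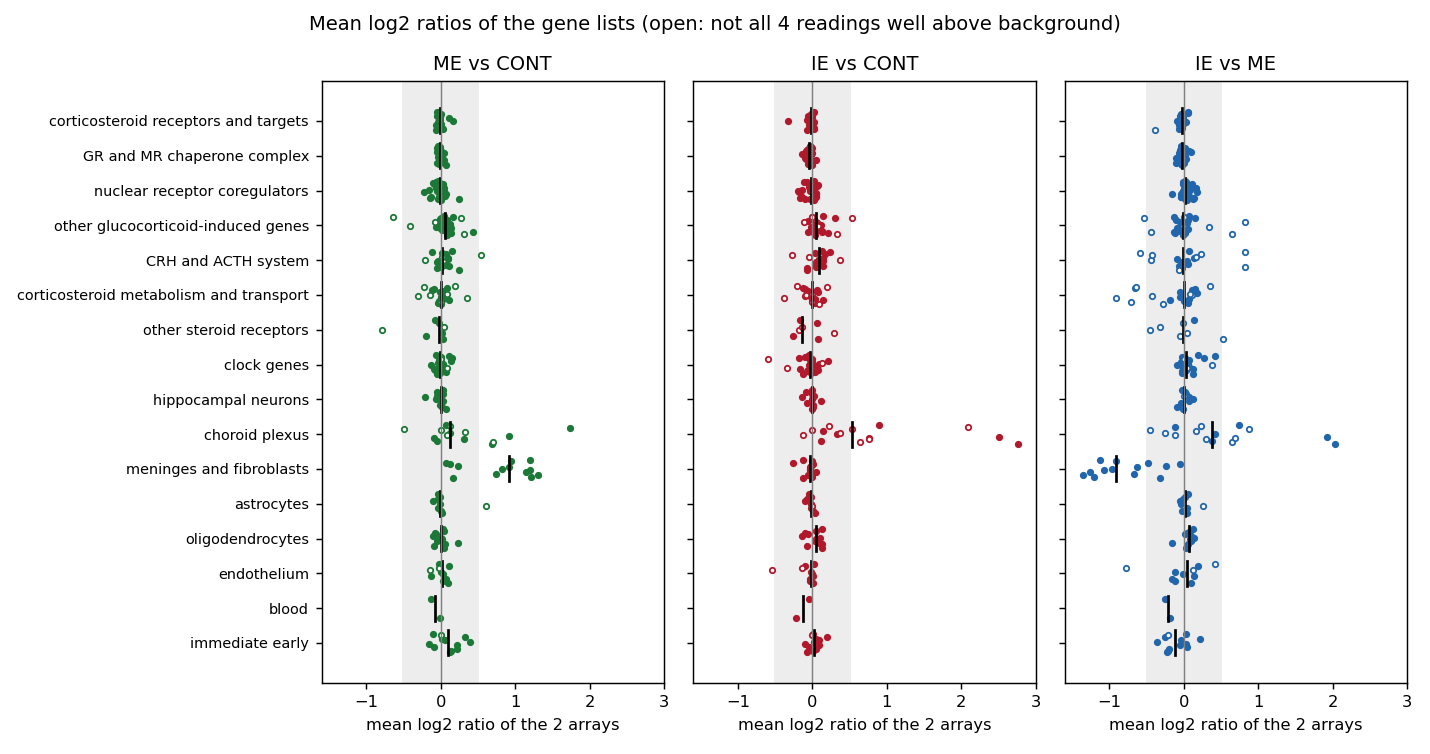
Mean log2 ratio of the 2 arrays for each probe of the corticosteroid receptor and target genes (top row), the 7 pathway lists and the marker lists, with the median of each list as a black bar. Open circles are probes without 4 readings well above background, and the grey band ends at 0.5 either way, the smallest mean that a called probe can have. The member probes and pathway lists centre near 0, while the meninges and fibroblast list centres at 0.92 in ME vs CONT and the choroid plexus list at 0.54 in IE vs CONT.

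Markers of hippocampal neurons (11 probes of 7 genes, of 8 listed) were all detected in the comparisons with CONT, 10 of 11 in IE vs ME, and none was called. Some marker probes of other cell types did differ between the pools of whole-hippocampus RNA. Of 13 probes for meninges and fibroblasts, 9 were up-regulated in ME vs CONT and 8 down-regulated in IE vs ME (medians 0.92 and -0.91). Choroid plexus probes were up-regulated for 3 of 14 with ME (median 0.13), for 4 of 15 with IE (median 0.54) and for 2 of 15 in IE vs ME (median 0.38). These 2 lists were drawn with earlier results of these arrays known. The part of these cells in the ratios of the corticosteroid genes was not tested. Of the lists for astrocytes, oligodendrocytes, endothelium and blood, none had a called probe. Over all probes the share called was 0.122% in ME vs CONT, 0.0293% in IE vs CONT and 0.0732% in IE vs ME.

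By likeness across the 6 arrays, measured as the root mean square difference of log2 ratios against 79 pathway genes, the nearest gene was Mt1a for Nr3c1 (0.030) and for Tsc22d3 (0.062), Mertk for Nr3c2 (0.085) and Abcb1b for Crhr1 (0.10). It was Ncoa1 for Hsd11b1 (0.034), Hdac3 for Fkbp5 (0.035), Hsp90aa1 for Sgk1 (0.046) and Srd5a1 for Per1 (0.11). The median difference over the 79 genes was 0.15 to 0.30. Since the dye difference enters each array, genes with a like dye behaviour are near by this measure.

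RefSeq promoter windows of build GRCr8, from 250 bases before to 50 bases after the start, were at hand for 12 starts of 6 members, namely Nr3c1, Crhr1, Fkbp5, Sgk1, Per1 and Tsc22d3. The response element arm AGAACA, searched on both strands, was in none of the 12, beside 20.7% of all 33469 windows. The full palindrome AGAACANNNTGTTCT was in none of the 12 either and in 5 of all windows, and each of its matches also holds that arm. The E-box CACGTG was in none of the 12 and in 6.42% of all. The core TGACG of the cAMP response element was in 1 window, of Tsc22d3 (chrX:109009985-109010284, minus strand), beside 21.2% of all. Windows of the same gene are not separate observations, and those of Crhr1 (chr10:89539959-89540258 and chr10:89539942-89540241) overlap. The 12 windows of 6 genes are too few to compare with the shares over all windows. These letters are a description of the windows, and elements that lie outside them were not searched.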

How the data were processed

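Members and gene lists were chosen with earlier results of these data known. The arrays were Agilent 2-colour arrays, 2 per comparison with the dyes exchanged, each pool holding RNA of 5 rats by the methods. The labels number the 2 arrays of a comparison Pool 1 and Pool 2. The deposited values are Agilent Feature Extraction files of the authors, with a log10 ratio of Cy5 over Cy3 and its p-value per spot, made from background-subtracted, dye-normalized signal intensity. The file headers give Feature Extraction version 9.5.3.1 and build rn3 for the slide with CONT, and version 11.0.1.1 and build rn4 for the slide of IE vs ME, whereas the methods name 9.5.3.1 alone. The second slide's files hold no gene names, which were joined by feature number and probe name. The intensity columns the authors deposited (raw mean or median and background) served the alternatives only.

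Each log10 ratio was converted to log2, turned, and averaged over retained spots of a probe. Outlier spots (92 to 302 per array) and 1639 control features were left out, and no spot was saturated. Between 66.5% and 74.4% of spots were well above background in both channels. The number of arrays limits the precision. Following the methods, 1 pool was taken to stand for each group, so the 2 arrays count as 1 replicate and no test across rats was made. The call rule and the fits were tested on simulated data. All members and all their probes are named. From the pathway lists the text names called probes, the highest and lowest detected probe of a list, and the nearest gene by likeness, and further list genes were named after their values were seen. Alternatives were the p threshold, the fold rule, background and dye correction, centring, the authors' value table, outlier spots, probe naming, single arrays and a joint fit. Tools were Python 3.11.15, pandas 2.3.3, R 4.3.3 and limma 3.58.1 (normexp with an offset of 50).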

Additional observations from a re-analysis of the deposited data

Results flagged for a closer look

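One member probe was flagged because every array of one exercise group moved one way and every array of the other moved the opposite way. The share of all probes that meet this rule is not given here. Both arrays had the same sign, in either direction, for 28.6% of detected probes in ME vs CONT and 28.2% in IE vs CONT. The flag alone does not set this probe apart from the rest of the array. At Nr3c2 A_44_P158441 the arrays of ME vs CONT read 0.068 and 0.27 and those of IE vs CONT -0.38 and -0.26 on the log2 scale, so that IE vs CONT minus ME vs CONT was -0.49. The difference was not tested, since each group was treated as 1 pool. It was -0.12 after normexp with loess, -0.17 with loess alone and -0.22 in a joint fit of the 6 arrays. The direct comparison of IE with ME gave -0.086 ± 0.21 (SD, 2 arrays). The other Nr3c2 probe, A_43_P15261, gave a difference of -0.017 between the same 2 comparisons.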

How the results depend on the processing

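No paired analysis was possible because, by the methods, RNA of a group's rats was pooled into 1 sample, and the array numbers go with the dye orientation. The number of called corticosteroid gene probes was 0 in all 3 comparisons under each alternative that used both arrays. On 1 array alone it was 0 in ME vs CONT and IE vs CONT and 1 on either array of IE vs ME, where the probe was Crhr1 A_42_P688027 with opposite directions. Called pathway probes were 0 in all 3 comparisons with both arrays, with exceptions in IE vs ME only. There were 2 in IE vs ME without the p threshold, beside 1.06% of all probes, and 1 (Crhr2) by the mean ratio of the 2 arrays. With 1 array alone there were 1 to 4 in ME vs CONT, 1 to 3 in IE vs CONT and 6 to 10 in IE vs ME. The share of all probes called on 1 array alone is not given here. Over the whole array, p was below 0.01 at 1.4% to 2.1% of retained spots on the arrays with CONT. On the arrays of IE vs ME it was below 0.01 at 7.7% and 7.6%, so that single-array counts there are not particular to these genes. Of 270 member ratios recomputed under 6 settings with both arrays, 17 moved by more than the SD between arrays, and the cause was not tested. The authors' value table, which held the same ratios, and the setting with outlier spots kept moved 0. Median centring moved 1, in IE vs ME. All other moves came from normexp with loess, loess alone and the joint fit. The SD used as the limit includes the dye difference, so that a small count does not show that the ratios are stable. Signals reached at most 46.2 at Nr3c2 A_44_P158441 and 48.7 at Crhr1 A_42_P688027, where 12 and 10 of 12 readings were well above background.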
